A study of Mus musculus with 5 samples.

Results

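Gdpd3 and 4 related glycerophosphodiester phosphodiesterase genes, Gdpd1, Gdpd2, Gdpd5 and Gde1, were followed across 5 Affymetrix mouse arrays. The members were all probe sets whose platform annotation gives a single symbol equal to one of these names, which gave 6 probe sets of 34945 with a single symbol, or 5 genes of 18193 tested. Gdpd1 had 2 probe sets and each of the others had 1. Gdpd3 was chosen by its own difference between the groups on these arrays, and the relatives were added by family, so the differences of the members are given as a description, without a test.

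The arrays carried RNA from bone marrow stem and progenitor cells of C57BL/6 mice, sorted by flow cytometry. Control mice had the genotype rtTA (3 arrays), the transactivator protein that switches on tetracycline-inducible transgenes, and the other mice were MSI2-inducible (2 arrays). MSI2 (Musashi 2) binds RNA and regulates the translation of its targets. The sample labels describe Sca1+ Kit+ cells (LSK), while the series text describes Sca1- Kit+ cells (LK), so the gate is uncertain. The labels used here do not give the age of the mice, the doxycycline treatment, the promoter that drives the transgene or whether the MSI2-inducible mice also carry rtTA. Whether each array holds RNA of its own mouse is not stated, and p-values cover only the spread between the arrays, part of which may be technical.

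Glycerophosphodiester phosphodiesterases cut a phosphodiester bond next to glycerol, which releases an alcohol from deacylated or lysophospholipids. Gdpd1 and Gdpd3 encode the lysophospholipase D members of the family, which act on lysophospholipids inside the cell and can yield lysophosphatidic acid, a signalling lipid, and N-acylethanolamines. Gdpd2 and Gdpd5 encode membrane-spanning members with an outward-facing catalytic domain that can release proteins held by a glycosylphosphatidylinositol anchor, and Gde1 encodes a broadly expressed membrane enzyme of glycerophosphoinositol and N-acylethanolamine metabolism. In mice, Gdpd3 has been linked to the maintenance of chronic myelogenous leukaemia stem cells.

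The 250 bases upstream of a gene's start are shown for Gdpd3, the gene with the large difference, for Gdpd1, its closest relative by activity, and for Gde1, to let their start regions be compared. They come from RefSeq on GRCm38.p6, where 4 of the 5 members matched, and lie at chr7:126766164-126766413 on the plus strand for Gdpd3, chr11:87074138-87074387 on the minus strand for Gdpd1 and chr7:118705739-118705988 on the minus strand for Gde1. Each is written 5′ to 3′ along its gene, and capitals mark matches to the motifs named after them.
Gdpd3: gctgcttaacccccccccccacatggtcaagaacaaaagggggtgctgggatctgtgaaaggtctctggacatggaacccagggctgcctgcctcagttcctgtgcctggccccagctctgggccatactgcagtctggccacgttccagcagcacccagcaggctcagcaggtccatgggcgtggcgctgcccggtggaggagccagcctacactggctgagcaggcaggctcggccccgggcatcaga
Gdpd1: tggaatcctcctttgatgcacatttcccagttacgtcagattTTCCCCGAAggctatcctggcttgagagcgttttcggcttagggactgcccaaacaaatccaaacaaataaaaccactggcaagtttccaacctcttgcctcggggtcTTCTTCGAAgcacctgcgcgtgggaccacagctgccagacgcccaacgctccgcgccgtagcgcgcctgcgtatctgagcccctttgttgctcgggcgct
Gde1: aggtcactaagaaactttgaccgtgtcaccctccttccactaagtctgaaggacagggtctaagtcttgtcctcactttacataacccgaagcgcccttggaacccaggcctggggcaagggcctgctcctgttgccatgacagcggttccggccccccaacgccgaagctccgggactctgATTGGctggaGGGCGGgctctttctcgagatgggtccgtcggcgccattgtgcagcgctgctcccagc
The 7 motifs searched on both strands were TGANTCA (AP-1), TGACGTCA (cAMP response), GAANNTTC (heat shock), TTCNNNGAA (STAT), GGGCGG (GC box), CCAAT and TATAAA. The Gdpd3 window held none of them. The Gdpd1 window held the STAT letters at 208 and 100 bases before the start, which 7.01% of 32817 windows of the same length also hold. The Gde1 window held a GC box (in 32.7% of windows) and a reversed CCAAT (in 33.8%), and no matches overlapped. The G and C share was 65.2% for Gdpd3, 56% for Gdpd1 and 60.4% for Gde1, beside a median of 52.4% over all windows. A match is a run of letters only, and its absence from these windows says nothing about a factor.

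Gdpd3 was far higher in the MSI2-inducible arrays than in the control arrays, while the 4 relatives differed by -0.20 to 0.37 on the log2 scale. Values are log2 of the deposited intensities, differences are MSI2-inducible minus control, and each gene stands for its brightest probe set. The Gdpd3 probe set read 5.39, 5.41 and 6.16 in the control arrays (replicates 1, 2 and 3) and 10.17 and 9.87 in the MSI2-inducible arrays (replicates 1 and 2), and array values below keep this order. Both MSI2-inducible arrays were above all control arrays, with a gap of 3.71 between the lowest of the former and the highest of the latter. The group means were 5.65 ± 0.44 (SD, n = 3) and 10.02 ± 0.21 (SD, n = 2).

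That is a difference of 4.37 with an SE of 0.29, or 20.6-fold on the linear scale. In intensity units, the control arrays read 41.8, 42.4 and 71.6 and the MSI2-inducible arrays 1152 and 933.7. Control replicates 1 and 2 were a little dimmer than the median probe set (5.57), and a fold taken from dim values is imprecise. With log2(value + 16) the difference was 3.98. Within its array, Gdpd3 was brighter than 47.6%, 47.8% and 56.6% of probe sets in control replicates 1, 2 and 3 and than 93.6% and 91.8% in MSI2-inducible replicates 1 and 2. In bulk RNA, more cells that express a gene and more RNA per cell cannot be told apart.

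**Figure D1:**
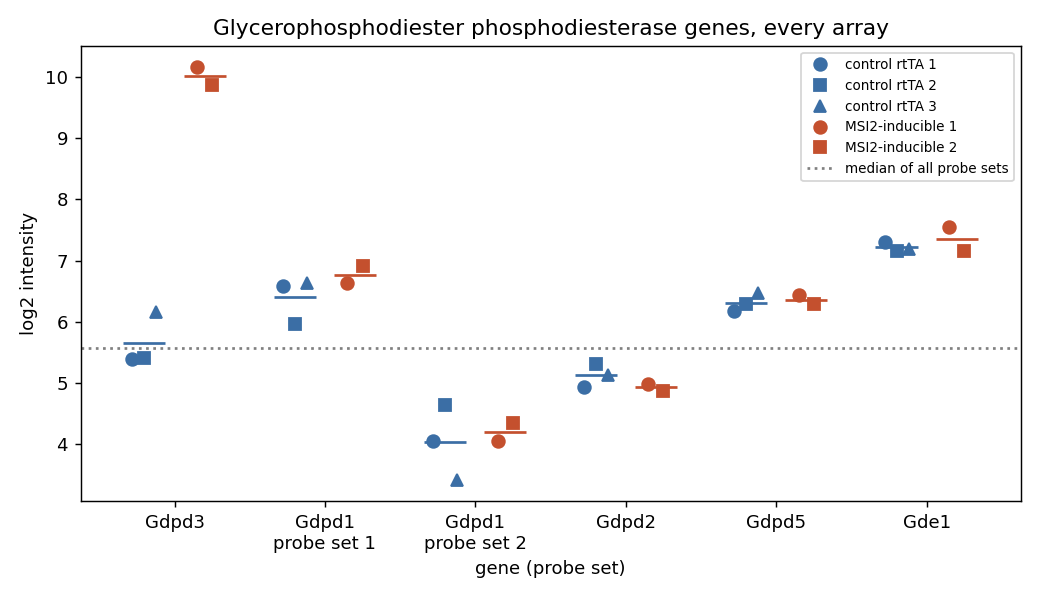
Log2 intensity (y axis) of every probe set of the 5 genes (x axis) in each array, with blue symbols for the 3 control arrays, orange symbols for the 2 MSI2-inducible arrays, short lines at the group means and a dotted line at the median of all probe sets (5.57). Gdpd3 lies at 10.17 and 9.87 in the MSI2-inducible arrays against 5.39 to 6.16 in control arrays, and the other probe sets overlap between groups.

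The call that singled out Gdpd3 was limma's adjusted p under 0.05 over all 18193 genes, which 0.022% of genes passed (4 genes), 3 of them higher and 1 lower in MSI2-inducible arrays. Among the members, Gdpd3 alone passed, 1 of 5, and since this contrast was used to choose it, its passing tests nothing. The genes nearest to the threshold inside it were Gdpd3 and Ifi44l (difference 3.67), and the nearest gene outside it was BC147527 (-3.16). By absolute difference Gdpd3 ranked as number 3 of all genes, and 4 genes differed by 4 or more. Leaving out any 1 of the 5 arrays ended the call, with differences of 4.22 to 4.62. Of 15 other fits, these 5 included, 9 ended it.

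Gdpd1, the other intracellular lysophospholipase D, read 6.58, 5.97 and 6.64 in the control arrays and 6.63 and 6.91 in the MSI2-inducible arrays. Only control replicate 2 lay clearly below the others, and the groups overlapped. The difference was 0.37 (SE 0.26). Its second, dimmer probe set read 4.05, 4.64 and 3.41 in control arrays and 4.04 and 4.35 in MSI2-inducible arrays, a difference of 0.16 (SE 0.38), with all 5 values under the median of all probe sets. The array that was lowest for the brighter probe set, control replicate 2, was the highest for the dimmer one.

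Gdpd2, which encodes a membrane-spanning enzyme first known from bone-forming cells, read 4.94, 5.32 and 5.13 in control arrays and 4.99 and 4.86 in MSI2-inducible arrays. All 5 values were under the median of all probe sets, and the groups overlapped. Its difference was -0.20 (SE 0.19).

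Gdpd5, whose product sheds anchored proteins from the cell surface and is best known from motor neuron differentiation, read 6.18, 6.29 and 6.46 in control arrays and 6.43 and 6.28 in MSI2-inducible arrays. The MSI2-inducible values lay inside the control range, and the difference was 0.05 (SE 0.18). Gdpd5 had the narrowest spread of the family, 0.28 between its lowest and highest array, and 9.87% of all genes had a narrower one.

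Gde1 read 7.31, 7.15 and 7.19 in control arrays and 7.54 and 7.15 in MSI2-inducible arrays. MSI2-inducible replicate 1 was the highest array and replicate 2 the lowest, so the replicates of that group enclosed the control arrays. The difference was 0.13 (SE 0.19), and it was -0.07 without MSI2-inducible replicate 1 and 0.33 without replicate 2. The Gde1 control arrays were close together, with an SD of 0.08 (n = 3).

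Spread among the control arrays also differed between members. Gdpd3 had the widest control spread of the 5, an SD of 0.44, against a median of 0.22 over all genes, and 83.9% of genes had a smaller one. Control replicate 3 was the high array, and the control range was 0.78. Gdpd1 followed with an SD of 0.37, Gdpd2 with 0.19, Gdpd5 with 0.14 and Gde1 with 0.08. The control spread of Gdpd3 is small beside its difference of 4.37. Arrays did not overlap in 1 of the 5 genes, Gdpd3, and in 18.7% of all genes.

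Another relative, Gpcpd1, which splits glycerophosphocholine, differed by -0.14 (SE 0.23, limma adjusted p 0.968) and its 3 dimmer probe sets by 0.04, -0.46 and 0.50. Gdpd4 was not analysed here.

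Genes of the lipid routes around these enzymes, with receptors and anchored substrate proteins, were taken from 9 lists of 99 distinct genes. Of these, 93 had a value. None passed limma's test in either direction (0 of 93, lowest adjusted p 0.835), and since 0.022% of all genes passed, that count is near the background and is no result about the lists. An unadjusted limma p under 0.05 was reached by 4 of the 93 (4.3%) and by 5.64% of all genes. The median difference was 0.06 over the 93 genes and 0.00 over all genes, 54 of the 93 were above 0, and arrays did not overlap in 15 (16.1%), against 18.7% of all genes.

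The N-acylethanolamine route had 13 measured genes, 8 above and 5 below 0, with a median of 0.08. Napepld, the phospholipase D that makes N-acylethanolamines in a single step, was at 6.21, 6.50 and 6.20 in control arrays and at 5.47 and 6.10 in MSI2-inducible arrays, a difference of -0.52 (SE 0.25, limma adjusted p 0.911). Both MSI2-inducible arrays were below the control arrays, replicate 2 only by a little. Abhd4, the hydrolase that makes the glycerophospho-N-acylethanolamines on which Gde1 acts, differed by 0.75 (SE 0.60, adjusted p 0.927), with MSI2-inducible replicate 1 at 9.35 and replicate 2, at 7.63, inside the control range. Naaa, an acid amidase that breaks N-acylethanolamines down, differed by 0.43, and its other probe sets by 0.16 and -0.69.

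Of 11 measured genes listed for lysophosphatidic acid synthesis and release, 5 were above and 6 below 0, with a median of -0.06. Not all of them make it directly. Pld2, a phospholipase D, was at 6.48, 7.07 and 6.02 in control arrays and at 4.80 and 5.81 in MSI2-inducible arrays. The groups did not overlap, and the difference was -1.22 (SE 0.42, limma adjusted p 0.870). Its second probe set differed by 0.03, so the probe sets disagreed. Pla1a, a phosphatidylserine-specific phospholipase, differed by -0.58 and Pld4, an exonuclease of the phospholipase D family found in myeloid cells, by 0.56. Enpp2, which encodes the secreted lysophospholipase D autotaxin, was not analysed here.

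Receptors for lysophosphatidic acid had 6 measured genes, 4 above and 2 below 0, with a median of 0.07. Lpar1 was at 4.50, 6.27 and 4.40 in control arrays and at 6.28 and 6.88 in MSI2-inducible arrays, a difference of 1.53 (SE 0.60, limma adjusted p 0.883). MSI2-inducible replicate 1 and control replicate 2 were nearly level, and the other Lpar1 probe sets differed by 0.24 and -0.10. Lpar6 was at 8.72, 8.91 and 9.16 in control arrays and at 8.19 and 8.32 in MSI2-inducible arrays, a difference of -0.68 (SE 0.20, adjusted p 0.835). Here the groups were apart, and this was the smallest adjusted p of the 93 genes. Lpar4 differed by -0.82, and its dimmer probe sets disagreed, at -0.15 and 0.77.

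Among 14 genes listed for the removal of lysophosphatidic acid by dephosphorylation or acylation, 8 were above and 6 below 0, with a median of 0.02. The list also holds the phosphatase-related Plppr genes, whose activity was not tested. Plpp1, a lipid phosphate phosphatase, was at 5.25, 4.56 and 5.10 in control arrays and at 6.58 and 5.43 in MSI2-inducible arrays, a difference of 1.04 (SE 0.39, limma adjusted p 0.883). Both MSI2-inducible arrays were above the control arrays, replicate 2 by little, and the other probe sets differed by 0.93 and 0.32. Acp6, a mitochondrial lysophosphatidic acid phosphatase, differed by -0.59 and the phosphatase Plpp2 by -0.41.

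Lysophospholipid breakdown and re-acylation genes numbered 18, with 10 above and 8 below 0 and a median of 0.11. Abhd6, a lipase that also hydrolyses lysophospholipids, differed by -0.78 (second probe set -0.09), and the acyltransferases Lpcat2 and Lpcat1 by 0.63 and 0.62. The second Lpcat2 probe set differed by -0.05 and the 4 others of Lpcat1 by 0.05 to 0.92. Pnpla6 and Pnpla7, lysophospholipases that yield glycerophosphodiesters, differed by 0.23 and -0.37. None of these genes passed the test.

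Choline and ethanolamine phospholipid synthesis genes numbered 16, with 7 above and 9 below 0 and a median of -0.02. Pcyt1b, an enzyme of phosphatidylcholine synthesis, differed by -0.71, and the phosphatidylserine synthases Ptdss2 and Ptdss1 by 0.56 and -0.53. Ptdss2 was at 10.74 in MSI2-inducible replicate 1 and at 7.94 in replicate 2, so its mean rests on 1 array, and its 8 other probe sets differed by -0.29 to 0.15. The 6 measured genes of glycerol 3-phosphate, a product of the family's reaction, had 5 above and 1 below 0 and a median of 0.08, with the glycerol 3-phosphate phosphatase Pgp at 0.35, the dehydrogenase Gpd1l at 0.33 and the transporter Slc37a1 at 0.11.

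Anchored proteins tied to Gdpd5 or Gdpd2 as substrates had 8 measured genes, 7 above and 1 below 0, with a median of 0.19. Plaur, the urokinase receptor, was at 6.99, 6.87 and 7.04 in control arrays and at 8.73 and 6.92 in MSI2-inducible arrays, so replicate 1 alone was high, and the difference was 0.86 (SE 0.51, limma adjusted p 0.912). The glypicans Gpc4 and Gpc1 differed by 0.86 and 0.20, and Gpc4 was likewise highest in MSI2-inducible replicate 1, with a second probe set at 0.03.

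**Figure D2:**
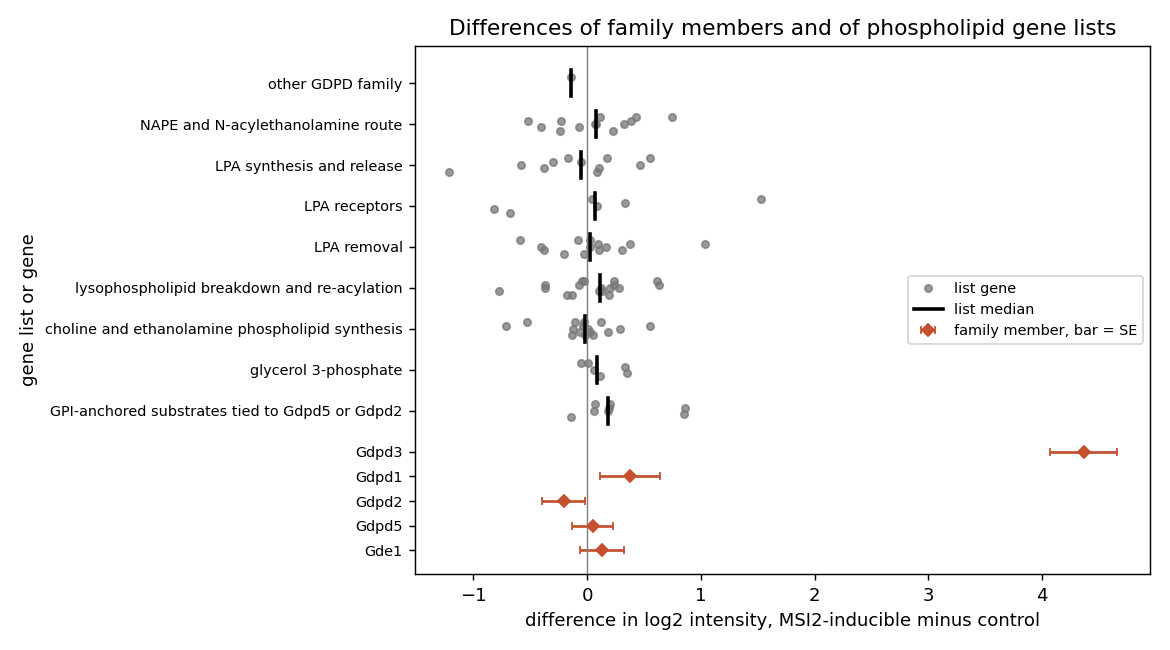
Differences in log2 intensity, MSI2-inducible minus control (x axis). Grey points are genes of 9 lists of lipid-route genes, receptors and anchored substrate proteins, with a black line at each list's median. Diamonds with SE bars are the 5 family members. List genes lie between -1.22 and 1.53, and Gdpd3 lies at 4.37.

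The measured genes that lie next to Gdpd3 on the chromosome had smaller differences. So did nearly all genes, since Gdpd3 was chosen by this contrast and only 2 genes had a larger absolute difference. In the gene table of GRCm38.p6, used for gene order only, the protein-coding genes directly beside Gdpd3 are Mapk3, which was not analysed here, and Ypel3. Of the 10 nearest genes with a value, 5 on each side, 4 were above and 6 below 0, with a median of -0.09. Their differences ranged from -0.74 (Sult1a1, a sulfotransferase) to 0.20 (Tlcd3b). None of the 10 passed limma's test, beside 0.022% of all genes, and arrays did not overlap in 0 of them, against 18.7% of all genes.

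Ypel3, which encodes a small zinc-binding protein, was at 8.21, 7.58 and 8.18 in control arrays and at 7.82 and 7.83 in MSI2-inducible arrays, inside the control range, with a difference of -0.16 (SE 0.25, limma adjusted p 0.966). On the other side Coro1a, an actin regulator of blood cells, differed by -0.10 (SE 0.17, adjusted p 0.968). The remaining neighbours were Sgf29 (0.08), Slx1b (-0.26) and Bola2 (-0.36) before Coro1a, and Tbx6 (-0.08), Ppp4c (0.05) and the glycolytic enzyme Aldoa (0.19) after Ypel3.

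**Figure D3:**
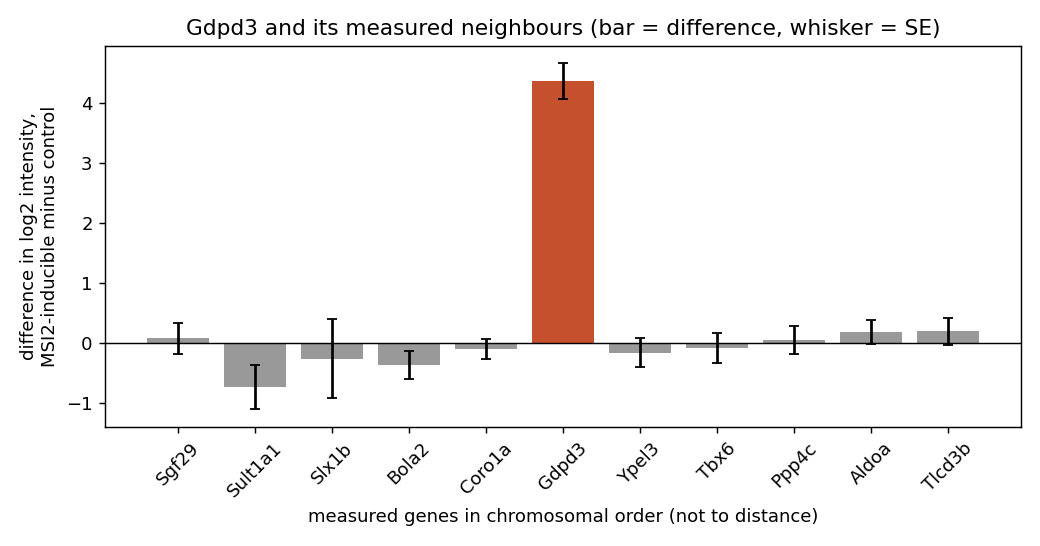
Difference in log2 intensity, MSI2-inducible minus control (y axis), for Gdpd3 and the 5 nearest measured genes on each side in chromosomal order (x axis, not to distance). Bars are differences and whiskers their SE. Gdpd3 stands at 4.37 and its neighbours lie between -0.74 and 0.20.

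The genes whose pattern over the 5 arrays was most like that of Gdpd3 were found by the root mean square distance between log2 profiles, each centred on its own mean. This measure uses the same comparison that singled out Gdpd3, so the genes it finds are those with a like difference, and it is given as a description. The closest was Ifi44l, an interferon-induced gene, at a distance of 0.44, followed by BC023105 (0.51), the neutrophil chemokine Cxcl2 (0.77), the microtubule-associated ubiquitin ligase Mid1 (0.78) and the meiosis gene Syce1 (0.85). The median distance over all genes was 2.17.

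Ifi44l and BC023105 started from lower control means, 2.62 and 2.77, and reached 6.30 and 6.27 in MSI2-inducible arrays. Their MSI2-inducible replicates were close together, as were those of Gdpd3. Mid1 was also even between replicates, at 10.17 and 10.22, with a larger difference of 5.56. Other probe sets differed by 4.80 and 0.06 for Mid1 and by 3.57 and 0.41 for Ifi44l. In both genes the dimmest probe set had the smallest difference. Syce1 was uneven, at 7.76 in replicate 1 and 5.24 in replicate 2, and Cxcl2 was at 9.35 and 8.27.

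**Figure D4:**
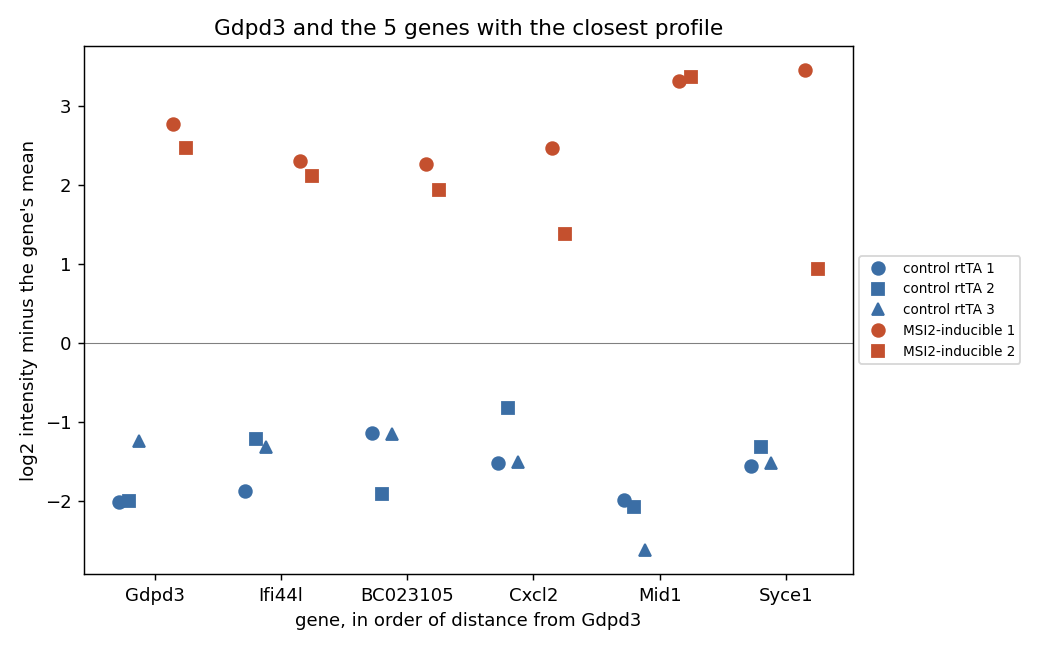
Log2 intensity minus each gene's mean over the 5 arrays (y axis) for Gdpd3 and the 5 genes at the smallest distance from it (x axis, nearest first), with blue symbols for control and orange for MSI2-inducible arrays. All 6 genes have both MSI2-inducible arrays above 0 and the control arrays below it, and Syce1 has the widest gap between the MSI2-inducible replicates.

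Marker genes of the sorted cells and of other marrow cells were set beside Gdpd3. None passed limma's test, which 0.022% of all genes passed, so this is near the background and no result about the markers. All 8 measured stem and progenitor markers had means over the median of all probe sets, while Ly6a, which encodes Sca1, was not analysed here. Against their control means, the 8 had a median of -0.37 in MSI2-inducible replicate 1 and 0.19 in replicate 2, with -0.16 to 0.08 in control arrays, and 6 of the 8 differed by less than 0. The stem cell receptor gene Slamf1 read 7.36, 7.99 and 7.66 in control arrays and 5.57 and 7.22 in MSI2-inducible arrays, a difference of -1.27 (SE 0.49, limma adjusted p 0.883), with its other probe sets at -1.10 and -0.76. Both MSI2-inducible arrays were below the control arrays for Slamf1. Kit, the stem cell factor receptor used in the sort, differed by -0.25 and its second probe set by 0.07. The cytokine receptor gene Flt3 differed by 0.17.

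Some markers were higher in both MSI2-inducible arrays, as Gdpd3 was. The monocyte chemokine receptor gene Ccr2 read 6.78, 6.72 and 6.38 in control arrays and 8.50 and 8.09 in MSI2-inducible arrays, a difference of 1.67 (SE 0.22, limma adjusted p 0.226), and its other probe sets differed by 1.76, 1.79 and 0.22. The other macrophage and monocyte markers differed less, with C1qa, a complement gene, at 0.71 and the macrophage marker Adgre1 at 0.20. The list of 5 had medians of 0.59 and 0.10 in MSI2-inducible arrays and -0.09 to 0.17 in control arrays, so replicate 2 lay within the control range.

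Erythroid markers (5 measured, all above 0) had medians of 1.37 and 0.15 in MSI2-inducible replicates 1 and 2 and -0.34 to 0.31 in control arrays. The erythropoietin receptor gene Epor read 7.24, 6.97 and 6.57 in control arrays and 8.30 and 7.89 in MSI2-inducible arrays, a difference of 1.16 (SE 0.26, limma adjusted p 0.616), with both MSI2-inducible arrays above the control arrays. The red cell anion exchanger gene Slc4a1 differed by 1.95 and the erythroid transcription factor gene Klf1 by 1.68, but in both genes MSI2-inducible replicate 2 lay within the control range.

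Neutrophil markers (8 measured, all above 0) moved apart in the MSI2-inducible arrays, with medians of 1.89 in replicate 1 and -1.04 in replicate 2 and -0.70 to 0.34 in control arrays. Their summed intensity was 62170 and 11710 in MSI2-inducible arrays and 14200 to 26600 in control arrays. Gdpd3 was at 10.17 and 9.87 in the same MSI2-inducible arrays. The chemokine receptor gene Cxcr2 differed by 1.49, the granule gene Lcn2 by 0.92 and the collagenase gene Mmp8 by 0.68.

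Megakaryocyte markers (5 measured, 4 below 0) had a median difference of -0.12, and their medians by array lay below the control arrays in both MSI2-inducible arrays. Pf4, a platelet chemokine gene, and Vwf, which encodes von Willebrand factor, differed by -1.38 and -0.95. Smaller differences were seen in Gp1bb (-0.12), Itga2b (-0.07) and Gp9 (0.11). The second Gp1bb probe set differed by -0.50, with the groups overlapping. Endothelium and stroma markers (6 measured, 4 below 0) had a median difference of -0.56 and also lay below the control arrays in both MSI2-inducible arrays. The stromal chemokine gene Cxcl12 differed by -2.16, and its other probe sets by -0.90 and -0.32. The endothelial cadherin gene Cdh5 differed by -1.02, but only control replicate 2 was high, at 6.88. Its second probe set differed by -0.04. The adhesion gene Pecam1 differed by -0.80, with MSI2-inducible replicate 2, at 7.73, inside the control range.

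B cell markers (5 measured) had medians of 0.61 and -0.05 in the MSI2-inducible arrays, with the antigen receptor genes Cd79a and Cd79b at differences of 1.07 and 0.20 and the transcription factor gene Pax5 at 0.39. T and NK cell markers (4) had medians of -0.01 and -0.18, with Nkg7 at -0.36, Cd3g at 0.18 and Cd3e at -0.17. Mast cell, basophil and eosinophil markers (6) had medians of 0.46 and -1.27. The eosinophil granule genes Epx and Prg2 differed by -1.47 (SE 1.61) and -1.25 (SE 2.08), with overlapping groups. Epx read 8.69, 3.78 and 7.75 in control arrays and 6.81 and 3.73 in MSI2-inducible arrays. Prg2 was likewise low in replicate 2 of both groups. The mast cell receptor gene Ms4a2 differed by 0.67 and its second probe set by -0.08. In each of these 3 lists 1 of the MSI2-inducible arrays lay within the control range. The part of any of these markers in the Gdpd3 difference was not tested.

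**Figure D5:**
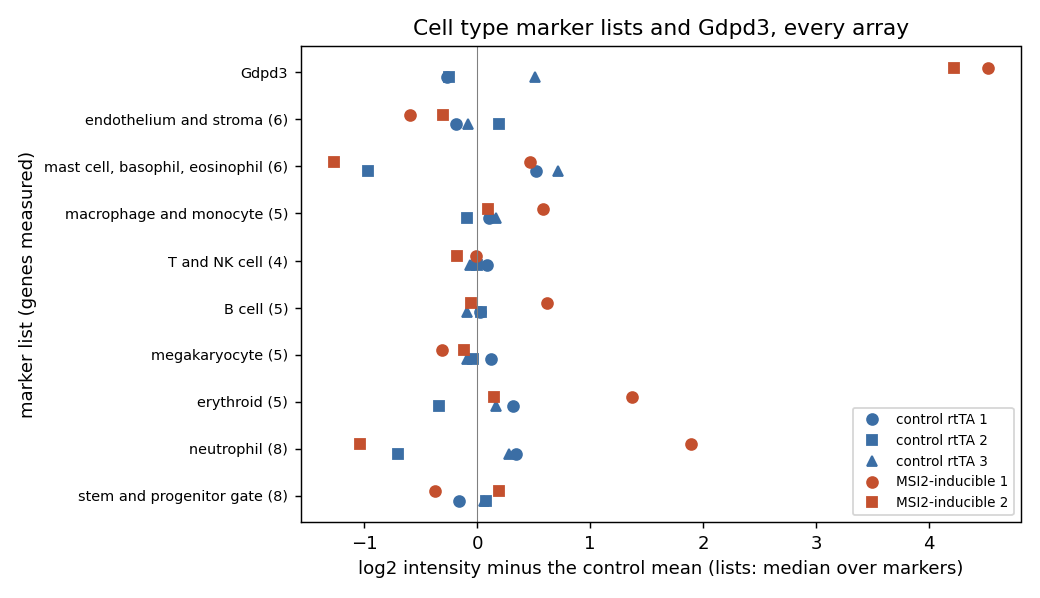
Median over the markers of each cell type of log2 intensity minus the control mean (x axis), by marker list (y axis, with the number measured), and the same for Gdpd3 alone in the top line, with blue symbols for control and orange for MSI2-inducible arrays. The neutrophil list has MSI2-inducible replicates at 1.89 and -1.04, on both sides of the control arrays, while both Gdpd3 values lie far to the right.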

How the data were processed

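Per the labels, sorted cells were lysed and their RNA was extracted with a Qiagen kit and linearly amplified before biotin labelling. The deposited intensities are linear probe set values that the authors had normalized between arrays, with medians between 46.4 and 48.3. The submitters' processing notes name R 2.11.0, affy and RMA, with no role given. The genome build and the step back to a linear scale are not given in the sources used here.

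Here log2 was taken with no pseudocount. Symbols came from the platform annotation, updated by Entrez ID (34741 of 34945 probe sets matched GRCm38.p6 gene names). Each gene was its brightest probe set by mean. All 18193 genes were fitted with limma 3.58.1 in R 4.3.3 (lmFit, eBayes, group only, 3 control against 2 MSI2-inducible arrays), two-sided, with Benjamini-Hochberg adjustment and a threshold of 0.05. The fit was tested on simulated data. The number of arrays limits precision. Genes named were the members, those of each list that passed or had the 3 largest differences, the 5 closest profiles and 5 measured neighbours on each side. Pnpla6, Pnpla7, Gp9, Itga2b and genes near the threshold were named after their values were seen. Members and lists were chosen with earlier results of these data known. Other settings changed the summary of probe sets, the filter, the normalization, the pseudocount, the variance model, the weights, the threshold, the replicate block and the arrays used. Figures used matplotlib 3.10.9.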

Additional observations from a re-analysis of the deposited data

How the results depend on the processing

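The Gdpd3 difference stayed between 3.98 and 4.62 and above 0 in all 15 other fits, the lowest with log2(value + 16). Its call held in 6 of them and was lost in 9: with each of the 5 arrays left out, with the replicate block, with array weights, with log2(value + 16) and when each probe set was tested by itself. Genes higher numbered 3, and 1 with log2(value + 16), 1 with array weights and 0 with the replicate block. Genes lower numbered 1, and 0 with log2(value + 16), 0 with the replicate block, 3 at an adjusted p of 0.10, 2 after repeated quantile normalization and 2 after the filter on low values. With an array left out, counts were 0 to 0 in each direction by limma, and a lone MSI2-inducible array was taken to vary as the control arrays do. With all arrays, 1026 genes had an unadjusted p under 0.05. The replicate block used replicates 1 and 2 only. The labels do not pair the arrays, and deviations of same-numbered arrays correlated at 0.134 and 0.0990 over genes.

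The count of list genes past the test stayed at 0 with the mean of probe sets. In that setting 5 of 18193 genes passed, so the count is near the background and no result about the lists. Left-out arrays gave Gdpd3 4.22 to 4.62, Gdpd1 0.16 to 0.52, Gdpd2 -0.30 to -0.11, Gdpd5 -0.03 to 0.12 and Gde1 -0.07 to 0.33. The sign thus changed for Gdpd5 and Gde1. Gdpd1 (0.37, SE 0.26) and Gdpd2 (-0.20, SE 0.19) kept theirs, but their groups overlapped, so their direction is not settled either. With low values left out, 4 of the 5 members remained, without Gdpd2. The causes were not tested. Signal under the median of all probe sets limits the dimmer Gdpd1 probe set and Gdpd2.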

Other observations

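By the same distance between centred profiles, the relatives were not among the genes most like Gdpd3. The distance rests on the comparison that singled out Gdpd3, so the ranks follow the differences given above and are no separate evidence. Of 18192 genes, Gdpd1 ranked as number 1710 (distance 1.98), Gde1 as 5105 (2.10), Gdpd5 as 6539 (2.13) and Gdpd2 as 13537 (2.26), where the median distance was 2.17.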
